A study of Mus musculus with 9 samples.

Results

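DNA methylation in mammals is copied to daughter strands by Dnmt1 together with Uhrf1, which binds hemimethylated DNA, is laid down on unmethylated DNA by Dnmt3a and Dnmt3b with the catalytically inactive cofactor Dnmt3l, and is removed by the TET dioxygenases Tet1, Tet2 and Tet3 with the glycosylase Tdg, which excises the oxidised bases. These 9 genes, out of 24505 in the table, were chosen by name for this role and not by a cut on measured values, though earlier results of these data were known. Male germ cells acquire much of their methylation before birth, and later, when spermatogonia divide and then pass through premeiotic S phase, the pattern has to be kept through DNA replication. The mRNA abundance of the 9 genes was described in sorted germ cells before and after entry into the preleptotene (PL) stage, with and without retinoic acid (RA), the vitamin A metabolite that drives spermatogonial differentiation.

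RNA-seq was made from testes of Uchl1-eGfp mice, a C57BL/6 reporter line outcrossed to CD-1, in which the Uchl1 promoter drives EGFP. Spermatogonia were sorted as brightly and preleptotene cells as dimly fluorescent, so the gate differed between In/B and PL. All 9 libraries came from animals given the RA synthesis inhibitor WIN18,446 orally at 100 µg/g from postnatal day 1 and a subcutaneous injection of RA (10 µl at 10 µg/µl) on day 11, which synchronised the germ cells. The In/B group held intermediate and type B differentiating spermatogonia at day 17, the RA-sufficient PL group held preleptotene spermatocytes at day 19 from animals no longer given the inhibitor, and the RA-deficient PL group held preleptotene spermatocytes at day 19 from animals in which inhibitor dosing went on. By the study's methods the In/B cells came from the RA-sufficient regimen. Each group had 3 libraries, and a cell preparation pooled at least 5 pups of a litter. Which libraries share a preparation is not stated, so p-values measure the spread between libraries, which may be partly technical. Stage and age moved together between In/B and both PL groups, and they cannot be told apart. In these bulk libraries, fewer cells of a type and less RNA per cell cannot be told apart either.

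Total counts ran from 12612959 to 27042274 per library, and 3 counts corresponded to 0.111 to 0.238 CPM (a gene's reads relative to the total of its library, with libraries scaled by the TMM method). RA-deficient PL had the highest median total count of the groups (26889781) but the fewest genes with a count. These were 14769 to 15327 genes per library, against 16758 to 18002 in In/B and 17541 to 18434 in RA-sufficient PL. The part of this in the RA-deficient comparisons was not tested. Germ cell markers followed the stage labels in part, with exceptions that touch the results below. Of 8 early meiotic markers, 6 were higher in every PL library than in every In/B library, among them Sycp3, a protein of the meiotic chromosome axis (81.0 to 104 CPM in In/B, 403 to 701 CPM in PL). The other 2, Stra8 and Rec8, overlapped between In/B and PL. The study names both as induced by RA. By quantitative RT-PCR it found neither upregulated in preleptotene cells of inhibitor-treated mice. It also reports that Stra8 mRNA did not change significantly in RA-deficient preleptotene cells, although the protein was undetectable. Its discussion describes the Stra8 mRNA level at this stage as apparently independent of RA. Stra8 was at 444, 126 and 121 CPM in RA-sufficient PL and 377, 365 and 81.5 CPM in RA-deficient PL. Rec8 was at 30.0 to 45.3 and 5.86 to 39.5 CPM, and both genes overlapped between the PL groups. Kit, the receptor that marks differentiating spermatogonia, was at 327 to 404 CPM in In/B and 20.2 to 41.0 CPM in RA-sufficient PL, but at 561, 521 and 20.3 CPM in RA-deficient PL. RA-deficient replicates 1 and 2 thus had Kit above every In/B library, and replicate 3 had it at the RA-sufficient level. Sertoli cell markers (7 genes summed) stood at 66.3 to 342 CPM in In/B, 2789 to 3618 CPM in RA-sufficient PL and 286 to 502 CPM in RA-deficient PL, and all 7 were higher in every RA-sufficient library than in every other library. The 7 peritubular and stromal markers summed to 99.6 to 161, 995 to 1363 and 148 to 186 CPM, but only Acta2, Sparc and Vim were higher in every RA-sufficient library than in all others, with Sparc (954 CPM on average in RA-sufficient PL) giving most of the sum, and the collagen gene Col1a1 was lower there (11.7 CPM, against 56.7 in In/B and 64.4 in RA-deficient PL). Sertoli RNA was therefore highest in the RA-sufficient libraries, the stromal list was mixed, and their part in any difference from these libraries was not tested. Leydig markers reached at most 37.7 CPM in sum with Insl3 at 0 in In/B and RA-deficient PL, and macrophage and blood markers at most 8.60 CPM with both globin genes at 0.

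Promoter sequence was read from RefSeq (GRCm38.p6) as 300-base windows around transcript starts, 250 bases before and 50 after, and all 9 genes matched, with 16 windows. E2F factors switch on genes of the G1/S transition, and 3 letter words of the E2F site (TTTCGCGC, TTTGGCGC and TTTCCCGC, both strands) were searched. The words share all but their middle letters, so only 1 of them can match at a given place and strand. They were present in 606 of 32851 promoters, 1.84%. Each word contains a CpG, and the share among promoters rich in CpG was not counted. The Dnmt1 and Uhrf1 windows with a match held 33 CpGs each, beside a median of 7 over all promoters. Among the 9 genes only the maintenance pair held one, Dnmt1 with 2 matches in the same window and Uhrf1 with 1. The sites are shown because these are the only places where a searched word occurred, with the word in capitals and each site written 5′ to 3′ on the strand of its gene.
Dnmt1, 219 bases before the start, word on the opposite strand, chr9:20952824-20952853: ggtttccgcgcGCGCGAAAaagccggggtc
Dnmt1, 33 bases after the start, chr9:20952574-20952601: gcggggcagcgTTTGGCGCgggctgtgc
Uhrf1, 185 bases before the start, chr17:56304117-56304146: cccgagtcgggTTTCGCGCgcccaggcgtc
A match is a run of letters and not a measured binding site. A direct repeat of AGGTCA-type elements with 5 bases between them is a form bound by RA receptors, and no other spacing was searched. It occurred in 32 promoters (0.0974%) and in none of the 16 windows, which says only that these letters were not there. CpG counts per window were highest for Tet2 (57) and Dnmt3a (up to 47), beside a median of 7 over all promoters. The lowest count, 2, was in a window of Dnmt1, whose other windows held 33 and 12, and the 3 windows of Dnmt3l held 3 to 6.

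Per kilobase of the longest coding transcript, the maintenance genes had the highest mRNA levels in every group. The exons of Dnmt3a together cover 16642 bases, against 9685 in that transcript, so its place in the orders below depends on the length used. In In/B, Dnmt1 stood at 226 ± 1.86 CPM per kb and Uhrf1 at 84.2 ± 9.34 CPM per kb (mean ± SD, n = 3 here and throughout). Dnmt3b (26.3 ± 10.0 CPM per kb), Dnmt3a (24.6 ± 0.983) and Tet3 (24.3 ± 1.74) followed and did not differ from each other beyond their spread. Tet2 (0.743 ± 0.335 CPM per kb) and Dnmt3l (0.600 ± 0.386) also overlapped, and Tet1 was lowest of the tested genes at 0.0897 ± 0.0230 CPM per kb. In RA-sufficient PL the order was Dnmt1 (48.2 ± 9.04 CPM per kb), Uhrf1 (34.1 ± 8.15), Dnmt3a (7.53 ± 0.671), Tet3 (6.54 ± 1.22), Dnmt3b (4.82 ± 1.48), Tet2 (2.82 ± 0.609), Dnmt3l (0.454 ± 0.327) and Tet1 (0.376 ± 0.0526). The library values overlapped between Dnmt3a and Tet3, between Tet3 and Dnmt3b, between Dnmt3b and Tet2, and between Dnmt3l and Tet1. In RA-deficient PL, Dnmt1 (104 ± 36.7 CPM per kb) and Uhrf1 (32.0 ± 3.34) led again, and Tet3 (18.7 ± 10.1) overlapped Dnmt3a (11.4 ± 2.99) and Dnmt3b (5.89 ± 1.72). Tet2 (2.58 ± 1.57 CPM per kb) overlapped Dnmt3b and Dnmt3l (0.969 ± 0.662), and Tet1 (0.0938 ± 0.0729) was below every Dnmt3l library.

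**Figure D1:**
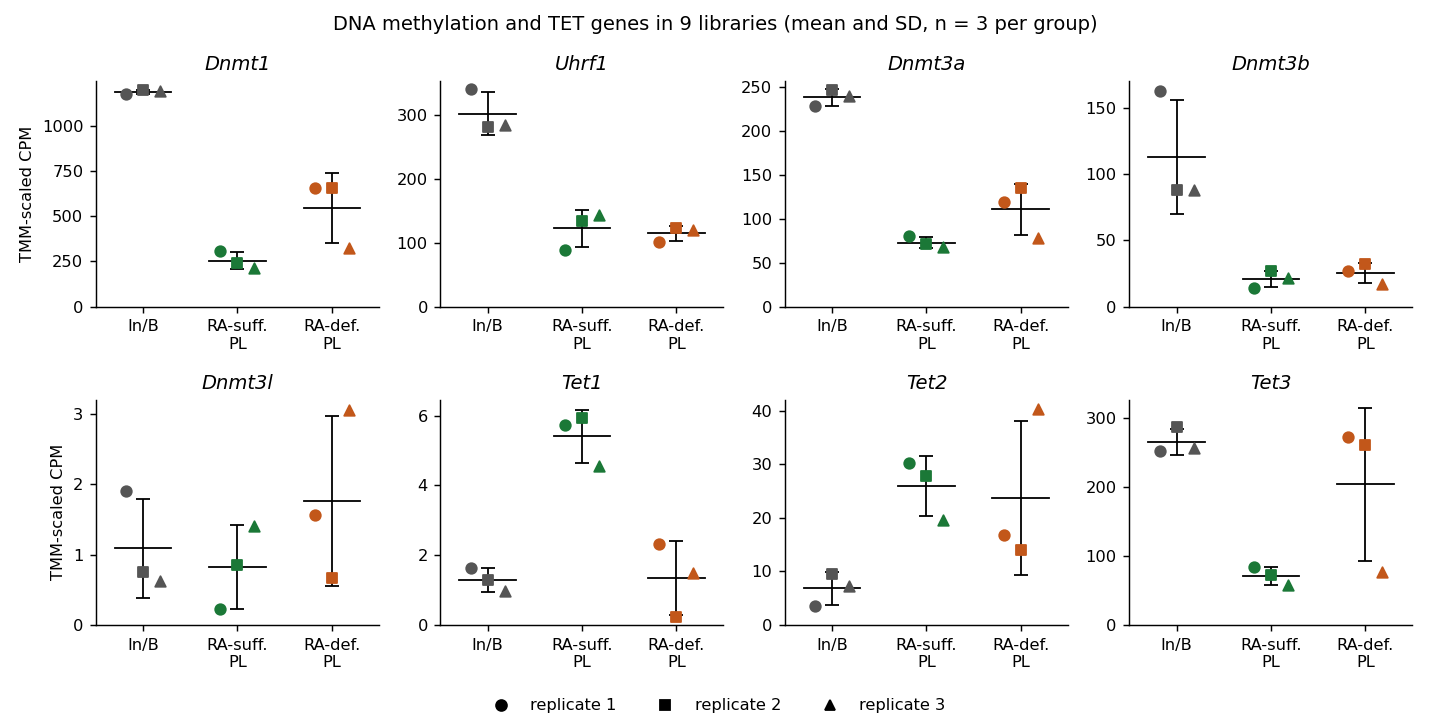
TMM-scaled CPM (vertical axis, linear from 0, a separate scale in each panel) of 8 genes in the 3 groups, with circles, squares and triangles for replicates 1, 2 and 3 and black lines for the mean ± SD (n = 3). Dnmt1, Uhrf1, Dnmt3a and Dnmt3b sit highest in In/B, Tet1 is at 4.54 CPM or more only in RA-sufficient PL, and RA-deficient replicate 3 is the lowest of its group for Dnmt1, Dnmt3a, Dnmt3b and Tet3 and the highest for Tet2 and Dnmt3l.

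The first question was what happened to the methylation machinery as differentiating spermatogonia became PL spermatocytes with RA available. Of the 8 genes tested, 7 changed, where a change means an absolute log2 fold change above 1 with an adjusted p below 0.05 in edgeR's quasi-likelihood test. Both maintenance genes, both active de novo enzymes and Tet3 were lower in RA-sufficient PL (5 genes), and Tet1 and Tet2 were higher. Of all 15001 genes tested, 45.4% were called in this comparison, 26.1% as higher and 19.3% as lower, so a call by itself was common. All 7 calls were kept whichever library was left out.

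Dnmt1, the maintenance methyltransferase (mm9 chr9:20711650-20757317, minus strand), was measured at 1178, 1197 and 1193 CPM in In/B, 306.5, 240 and 214 CPM in RA-sufficient PL, and 657, 658 and 323 CPM in RA-deficient PL. The 3 groups did not overlap, and RA-deficient replicate 3 lay just above the highest RA-sufficient library. The log2 fold change between RA-sufficient PL and In/B was -2.17 (SE 0.15, edgeR adjusted p = 1.51e-05).

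Uhrf1, the partner that recruits Dnmt1 to newly replicated DNA (chr17:56442744-56462909, plus strand), was measured at 340, 280 and 285 CPM in In/B, 89.1, 134 and 144 CPM in RA-sufficient PL, and 101.0, 124 and 119 CPM in RA-deficient PL. Both PL groups lay below In/B and lay within the same range. The log2 fold change between RA-sufficient PL and In/B was -1.25 (SE 0.19, edgeR adjusted p = 4.78e-04). Of the 75-base windows along its transcript, 17.6% had an exact copy elsewhere in the genome, in the pseudogene Gm5648 on chromosome X, and how reads with several matches were counted is not given in the sources used here.

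Dnmt3a (chr12:3806007-3914443, plus strand), the broadly used de novo methyltransferase, was measured at 228, 247 and 241 CPM in In/B, 80.2, 71.0 and 67.7 CPM in RA-sufficient PL, and 119, 135 and 78.5 CPM in RA-deficient PL. Its log2 fold change between RA-sufficient PL and In/B was -1.65 (SE 0.11, edgeR adjusted p = 1.52e-05). All PL libraries were below all In/B libraries, and RA-deficient replicate 3 lay among the RA-sufficient ones.

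Dnmt3b (chr2:153475186-153513466, plus strand), the second active de novo enzyme, was measured at 163, 88.5 and 88.5 CPM in In/B, 14.1, 26.8 and 21.6 CPM in RA-sufficient PL, and 26.8, 32.1 and 17.4 CPM in RA-deficient PL. With a log2 fold change of -2.39 between RA-sufficient PL and In/B (SE 0.32, edgeR adjusted p = 2.6e-04), it had the lowest fold change of the 8 genes. Again every PL library lay below every In/B library, and the PL groups overlapped.

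Dnmt3l (chr10:77504692-77526367, plus strand), the cofactor used in prospermatogonia, was near the limit of measurement, at 1.901, 0.756 and 0.622 CPM in In/B, 0.221, 0.849 and 1.41 CPM in RA-sufficient PL, and 1.56, 0.674 and 3.06 CPM in RA-deficient PL. These values came from between 3 and 70 reads per library. All 3 groups overlapped, and no difference was detectable at this depth: the log2 difference between RA-sufficient PL and In/B was -0.30 with a 95% interval from -1.92 to 1.32 (edgeR adjusted p = 0.729). The gene overlaps Aire on the opposite strand over 1664 bases of their gene spans, and the strand setting of the counting is not given in the sources used here.

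Tet1 (chr10:62267318-62361866, minus strand), the TET enzyme best known from pluripotent and primordial germ cells, was measured at 1.62, 1.28 and 0.961 CPM in In/B, 5.74, 5.94 and 4.54 CPM in RA-sufficient PL, and 2.32, 0.238 and 1.49 CPM in RA-deficient PL. The RA-sufficient libraries were all above the other 6. The log2 fold change between RA-sufficient PL and In/B was 2.12 (SE 0.37, edgeR adjusted p = 0.00103), on 78 to 103 reads per RA-sufficient library and 17 to 34 per In/B library. Tet1 was high where the Sertoli markers were high, and their part in it was not tested.

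Tet2 (chr3:133126643-133207354, minus strand), which lacks the CXXC DNA-binding domain of the other TET enzymes, was measured at 3.52, 9.60 and 7.35 CPM in In/B, 30.2, 27.8 and 19.6 CPM in RA-sufficient PL, and 16.8, 13.9 and 40.2 CPM in RA-deficient PL. The 6 PL libraries were all above the 3 In/B libraries, and the PL groups overlapped. Its log2 fold change between RA-sufficient PL and In/B was 1.98 (SE 0.36, edgeR adjusted p = 0.00138).

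Tet3 (chr6:83312367-83391672, minus strand), the TET enzyme of the oocyte and zygote, was measured at 252, 287 and 256.5 CPM in In/B, 84.0, 72.5 and 57.4 CPM in RA-sufficient PL, and 274, 262 and 76.6 CPM in RA-deficient PL. RA-deficient replicates 1 and 2 lay in the In/B range and replicate 3 in the RA-sufficient range. The log2 fold change between RA-sufficient PL and In/B was -1.84 (SE 0.15, edgeR adjusted p = 2.84e-05).

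Tdg (chr10:82092573-82113544, plus strand) was listed at 0 counts in 8 libraries and at 1 count in RA-sufficient replicate 2, and was not tested. A count of 0 allows up to 3 counts, or 0.111 to 0.238 CPM depending on the library. Of the 3428 windows of 75 bases, the read length of the study, along its longest coding transcript, 2513 (73.3%) had an exact copy elsewhere in mm9, and of its 1192 coding windows 979 (82.1%) did. The copies lay at chr10:41772364-41775242 (the pseudogene Gm9855, itself at 0 counts in the table), chr15:82346753-82349711 (Gm5806), chr19:33746768-33748522 (within Lipo1) and chr7:83388075-83390961 (no annotated gene). A further 915 windows had no copy. The coding window below is shown because a read from it matches Tdg and 3 other places exactly, at chr7:83390653-83390727, chr10:41774940-41775014 and chr15:82347012-82347086.
Tdg, bases 328 to 402 of the transcript: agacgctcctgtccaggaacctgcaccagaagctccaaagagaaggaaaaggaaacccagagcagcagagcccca
Corresponding windows of Dnmt3b and Uhrf1 with 1 copy each, at chr2:153542615-153542689 and chrX:118450111-118450185, are shown for comparison, and only 3.20% of the Dnmt3b windows had a copy.
Dnmt3b, bases 1835 to 1909: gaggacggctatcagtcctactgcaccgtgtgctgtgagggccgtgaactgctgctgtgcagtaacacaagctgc
Uhrf1, bases 1011 to 1085: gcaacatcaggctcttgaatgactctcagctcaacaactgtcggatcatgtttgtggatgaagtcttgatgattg
Whether Tdg was expressed cannot be read from these counts, and the part of the copies in the zeros was not tested. Dnmt1, Dnmt3a, Dnmt3l, Tet1 and Tet3 had no window with a copy, and Tet2 had 33 of 9105, none in its coding sequence.

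In the comparison of RA-deficient PL with In/B, which asks whether the same shifts occurred when RA synthesis stayed blocked, 3 of the 8 genes were called, against 23.2% of the 14877 genes tested. Uhrf1 fell by 1.23 on the log2 scale (SE 0.14, edgeR adjusted p = 5.12e-04), Dnmt3b fell by 1.99 (SE 0.33, edgeR adjusted p = 0.00259) and Tet2 rose by 1.96 (SE 0.51, edgeR adjusted p = 0.0184). Both comparisons with In/B used the same In/B libraries. The Tet2 call was lost without In/B replicate 1 or without In/B replicate 3 (edgeR adjusted p from 0.0209 to 0.0638 over the 6 fits with a library left out), and its value without RA-deficient replicate 3, the highest of the 9 libraries, stayed called. The Sertoli marker sum was 286, 302 and 502 CPM in the RA-deficient libraries and at most 342 CPM in In/B. Tet2 and this sum were both highest in replicate 3 among the RA-deficient libraries, and the part of Sertoli RNA in the Tet2 level was not tested.

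Dnmt1 and Dnmt3a were also lower in RA-deficient PL than in In/B but stayed short of the fold limit, with log2 fold changes of -0.96 (SE 0.25, edgeR adjusted p = 0.0189) and -0.94 (SE 0.20, edgeR adjusted p = 0.00735). Both were called when RA-deficient replicate 1 or 2 was left out, which gave 5 calls in place of 3. The Dnmt1 difference was not stable, with an adjusted p of 0.0503 to 0.063 when any In/B library was left out, and a log2 fold change of -0.68 (edgeR adjusted p = 2.66e-04) without RA-deficient replicate 3. Dnmt3a ran from -1.13 to -0.74 over these fits, with adjusted p up to 0.0312. Tet3 differed by -0.21 with a 95% interval from -1.14 to 0.72 (edgeR adjusted p = 0.732), and without RA-deficient replicate 3 by 0.19. Tet1 differed by 0.23 (95% interval -1.89 to 2.34, edgeR adjusted p = 0.877) and Dnmt3l by 0.85 (95% interval -1.15 to 2.85, edgeR adjusted p = 0.497).

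**Figure D2:**
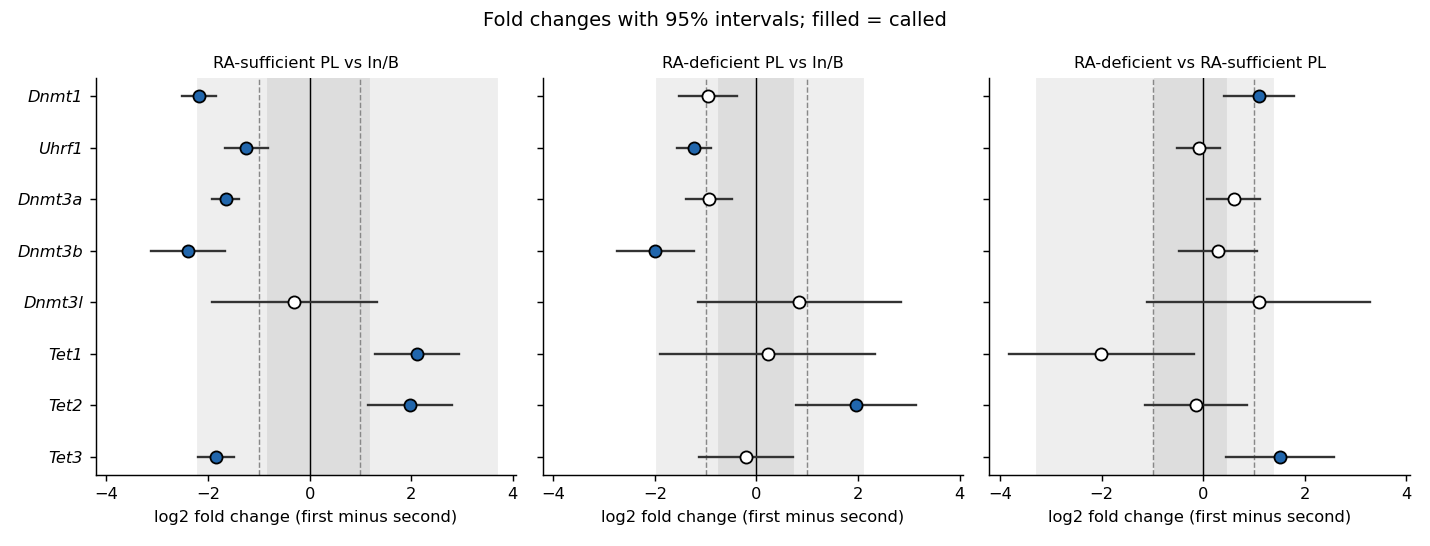
Log2 fold changes (horizontal axis, first-named group minus second) with 95% intervals of 8 genes in the 3 comparisons. Filled points were called, dashed lines mark the fold limit of 1, and grey bands hold the middle 50% and 90% of all genes tested. 7, 3 and 2 genes are filled from left to right.

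The PL groups were then compared with each other to ask what continued block of RA synthesis changed, and 2 of 8 genes were called, both higher in RA-deficient PL, against 15.5% of all 15352 genes tested, 4.47% as higher and 11% as lower. Dnmt1 was higher there than in RA-sufficient PL by 1.10 on the log2 scale (SE 0.30, 95% interval 0.40 to 1.79, edgeR adjusted p = 0.0353). Tet3 was higher by 1.51 (SE 0.45, 95% interval 0.45 to 2.57, edgeR adjusted p = 0.0491). For Dnmt1 all 3 RA-deficient libraries were above all RA-sufficient ones, whereas for Tet3 RA-deficient replicate 3 (76.6 CPM) was below RA-sufficient replicate 1 (84.0 CPM). The calls rested on which libraries entered. Without RA-deficient replicate 3 both were kept and larger, at 1.38 for Dnmt1 (edgeR adjusted p = 6.78e-04) and 1.92 for Tet3 (edgeR adjusted p = 2.72e-04). Without any other of the 6 libraries both were lost, with adjusted p up to 0.12 for Dnmt1 and 0.154 for Tet3. With libraries scaled by total count alone both were also lost, at 0.92 and 1.33.

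The other genes were not called between the PL groups, which does not show that they were alike. Uhrf1 had the narrowest interval, a log2 difference of -0.09 from -0.52 to 0.33 (edgeR adjusted p = 0.748). Dnmt3a differed by 0.60 (95% interval 0.08 to 1.11, edgeR adjusted p = 0.0926) and Dnmt3b by 0.29 (95% interval -0.47 to 1.06, edgeR adjusted p = 0.551). Tet1 differed by -2.01 (95% interval -3.84 to -0.19, edgeR adjusted p = 0.104) with all 3 RA-deficient libraries below all RA-sufficient ones, and DESeq2 called it (adjusted p = 0.0398). Tet2 differed by -0.14 (95% interval -1.16 to 0.87, edgeR adjusted p = 0.835), and Dnmt3l by 1.09 (95% interval -1.10 to 3.28, edgeR adjusted p = 0.435).

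**Figure D3:**
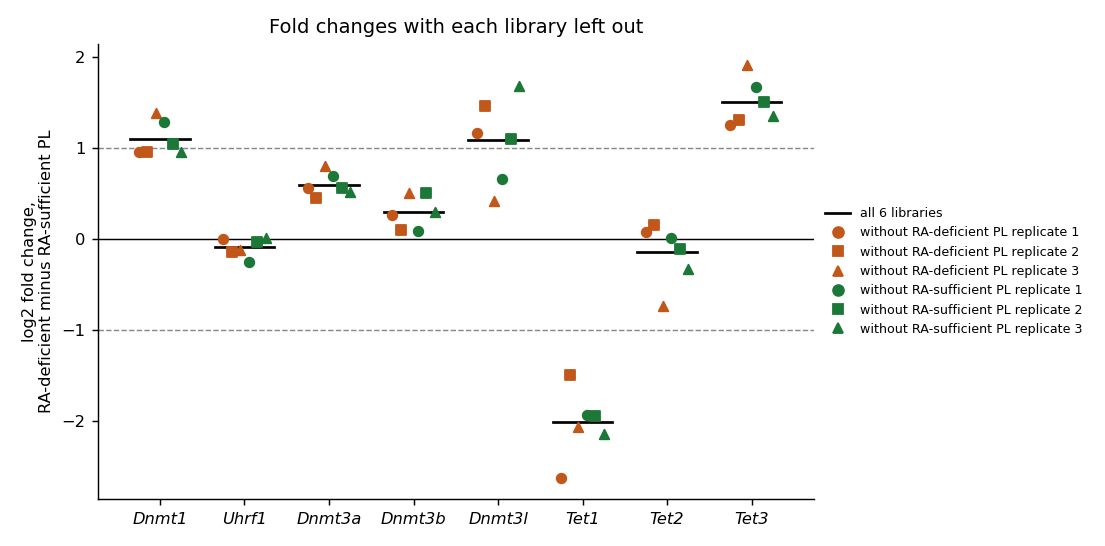
Log2 fold change of 8 genes between RA-deficient and RA-sufficient PL (vertical axis) with all 6 libraries (black line) and with each library left out in turn (points, orange for RA-deficient and green for RA-sufficient libraries), with dashed lines at the fold limit of 1. Leaving out RA-deficient replicate 3 gives Dnmt1 1.38 and Tet3 1.92, the highest values for both, and gives Tet2 its lowest value, -0.74.

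Some marker genes split among the RA-deficient libraries as Tet3 did. The 6 markers of differentiating spermatogonia summed to 1693, 1359 and 1305 CPM in In/B, to 383, 314 and 286 CPM in RA-sufficient PL and to 1396, 1367 and 330 CPM in RA-deficient PL. Tet3 and this sum were thus both at the In/B level in RA-deficient replicates 1 and 2 and both near the RA-sufficient level in replicate 3, while Dnmt1 in replicates 1 and 2 lay between the other groups. Within this list, Kit, Sohlh1 and Dmrt1 were over 2 times higher in RA-deficient replicates 1 and 2 than in replicate 3, and the other 3 markers were not. The undifferentiated spermatogonia list went another way, with a sum of 256.3, 203 and 323 CPM in RA-deficient PL, highest in replicate 3. The early meiotic sum was 2247 to 2678 CPM in RA-deficient PL, but its 8 markers did not move together. Of these, Stra8 (377, 365 and 81.5 CPM) and Rec8 (29.4, 39.5 and 5.86 CPM) were over 2 times higher in replicates 1 and 2 than in replicate 3. By contrast, Meiob (57.5, 49.7 and 238 CPM) and Spo11 (31.6, 27.9 and 124 CPM) were over 2 times higher in replicate 3. The part of these differences between libraries in the Dnmt1 and Tet3 results was not tested.

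**Figure D4:**
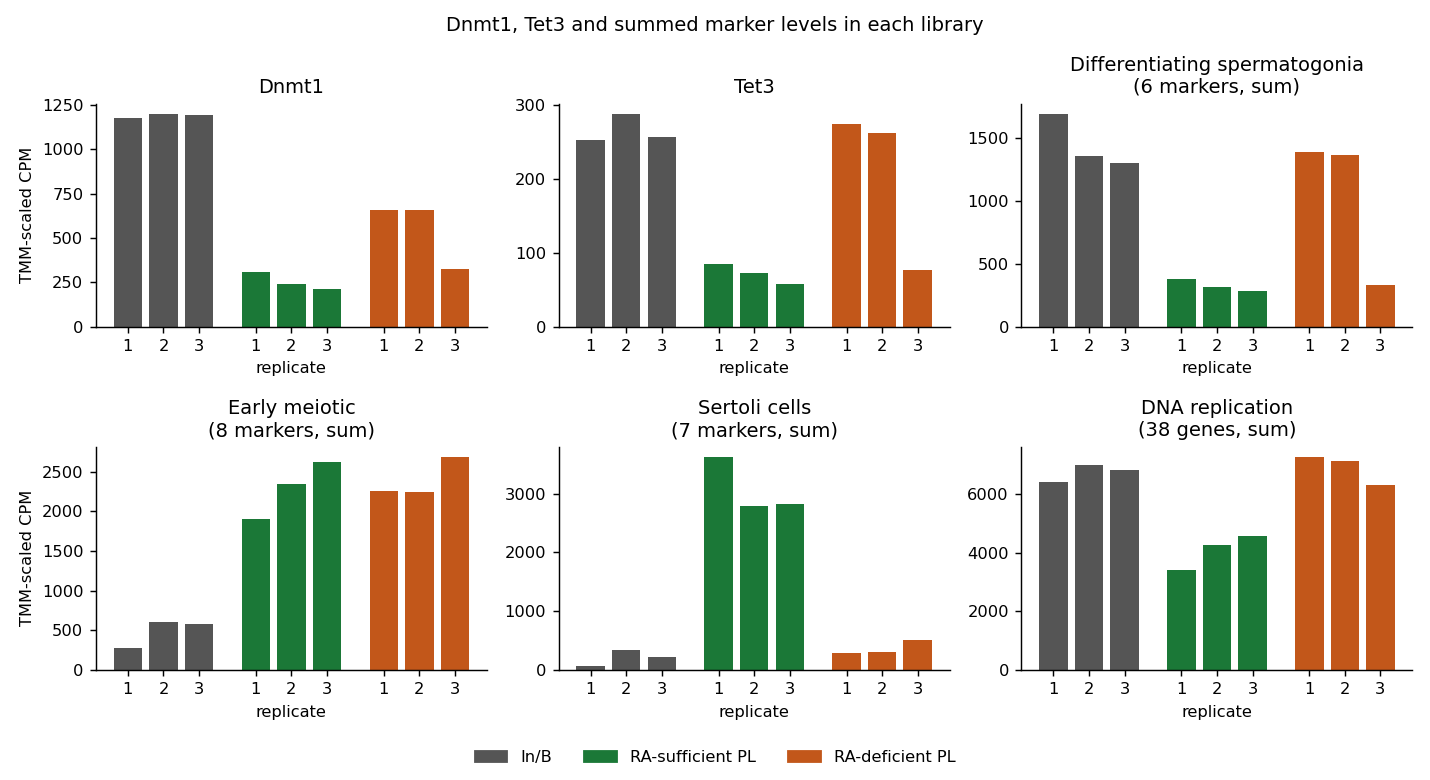
TMM-scaled CPM (vertical axes, linear from 0) of Dnmt1, Tet3 and 4 marker sums in each of the 9 libraries (bars, 1 per replicate). RA-deficient replicates 1 and 2 stand near In/B for Tet3 and the differentiating spermatogonia sum, the Sertoli sum is at 2789 CPM or more only in the RA-sufficient libraries, and the replication sum is at 4564 CPM or less only there.

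Within a library, the ratio of raw counts of a pair of genes does not depend on scaling. An exact two-sided permutation test of 3 against 3 libraries cannot give a p below 0.1, and over the 9 ratio tests the lowest adjusted p was 0.225, so none could pass. The log2 ratio of Uhrf1 to Dnmt1 was -1.98 ± 0.17 in In/B, -1.06 ± 0.63 in RA-sufficient PL and -2.18 ± 0.66 in RA-deficient PL. RA-sufficient PL and In/B differed by 0.92 in this ratio, with RA-sufficient replicate 1 next to the highest In/B library (exact permutation p = 0.1). The ratio of Dnmt3a to Dnmt3b was 1.14 ± 0.57, 1.85 ± 0.58 and 2.13 ± 0.06 on the log2 scale. The ratio of Tet3 to Tet1 was 7.69 ± 0.39 in In/B, 3.71 ± 0.14 in RA-sufficient PL and 7.51 ± 2.23 in RA-deficient PL, and all RA-sufficient libraries lay below all others (exact permutation p = 0.1 against either group).

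Dnmt1 and Uhrf1 act at the replication fork, and 38 DNA replication genes were set beside them. In RA-sufficient PL against In/B, 17 of 38 were called (44.7%, beside 45.4% of all genes), 16 of them lower (42.1%, beside 19.3%), with a median log2 fold change of -0.90 against 0.04 for all genes tested. They included the origin licensing factor Cdt1 (77.8 ± 12.5 CPM in In/B, 8.55 ± 4.21 in RA-sufficient PL), the polymerase epsilon subunit Pole2 (47.5 ± 4.67 and 5.74 ± 1.42 CPM) and the thymidylate synthase Tyms (52.4 ± 6.64 and 7.37 ± 0.876 CPM). In RA-deficient PL against In/B, 12 of 38 were called (31.6%, beside 23.2%), 5 higher and 7 lower, and 24 of 38 had a negative log2 fold change (median -0.38). Among the 5, Pole rose from 599 ± 96.7 to 1633 ± 107 CPM and the helicase subunit Mcm5 from 450 ± 39.6 to 1100 ± 45.9 CPM, both in 3 of 3 libraries, while Dnmt1 and Uhrf1 were lower there than in In/B. The summed level of the 38 genes was 6437 to 7001 CPM in In/B, 3397 to 4564 CPM in RA-sufficient PL and 6329 to 7262 CPM in RA-deficient PL. Pole and Mcm5 made up 13.9% to 16.7% of this sum in In/B, 29.8% to 36.6% in RA-sufficient PL and 36.8% to 45.5% in RA-deficient PL, so the sum does not stand for the typical gene of the list. Uhrf1 was at 122 ± 29.2 CPM in RA-sufficient PL and 115 ± 11.99 CPM in RA-deficient PL, and the part of replication activity in its level was not tested. Between the PL groups 3 of 38 were called (7.89%, beside 15.5%), all higher in RA-deficient PL (beside 4.47% of all genes called as higher), and 34 of 38 had a positive log2 difference (median 0.57 against -0.09 for all genes tested). The ribonucleotide reductase subunit Rrm2 (104 ± 9.17 CPM in RA-sufficient PL and 314 ± 58.4 in RA-deficient PL) was called whichever library was left out, the polymerase delta subunit Pold1 (51.9 ± 11.9 and 294 ± 163 CPM) was lost without RA-sufficient replicate 2 or 3, and Pole2 was kept in 1 of 6 such fits.

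The other genes of the methylation pathway, 65 companions in 6 lists, were counted in the same way. In RA-sufficient PL against In/B, 27 of the 62 tested were called (43.5%, beside 45.4% of all genes), 3 higher and 24 lower, and the median log2 fold change was -0.57. In RA-deficient PL against In/B, 15 of 62 were called (24.2%, beside 23.2%), 2 higher and 13 lower, with a median of -0.18. Between the PL groups 9 of 63 were called (14.3%, beside 15.5%), 4 higher and 5 lower in RA-deficient PL. The total share called was near that of all genes in each comparison. By direction, 38.7% of the companions were called as lower and 4.84% as higher in RA-sufficient PL against In/B, beside 19.3% and 26.1% of all genes, and 21% and 3.23% in RA-deficient PL against In/B, beside 11.8% and 11.4%.

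**Figure D5:**
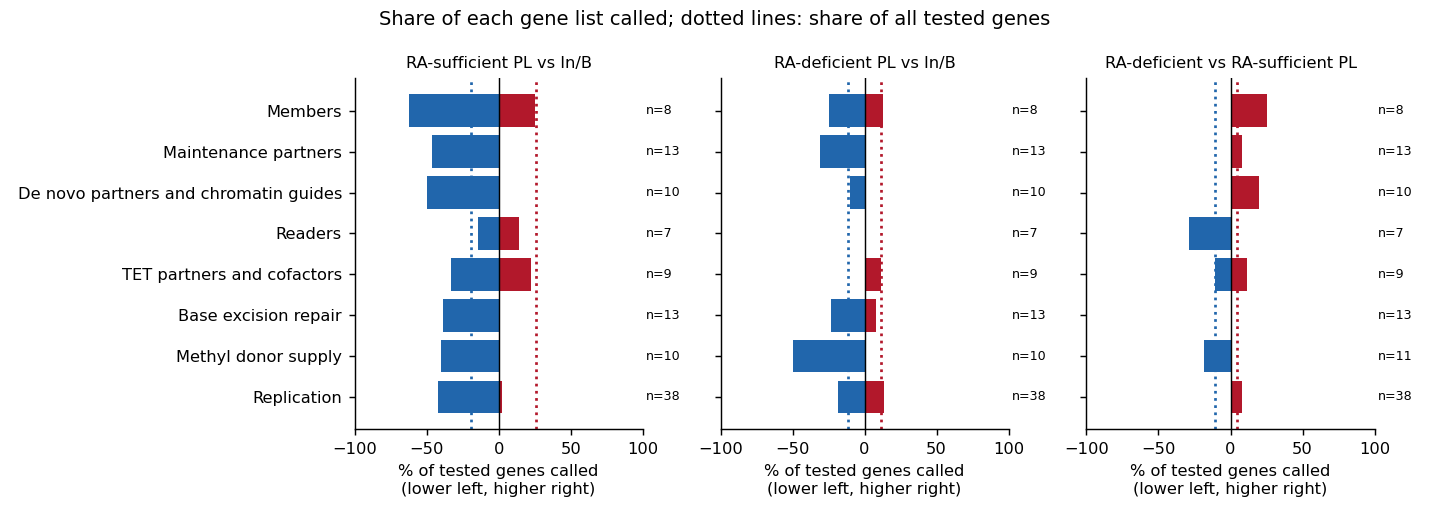
Percent of the tested genes in each list that were called (horizontal axis, lower to the left in blue and higher to the right in red) in the 3 comparisons, with n giving the genes tested and dotted lines the share of all genes tested called in each direction. In RA-sufficient PL against In/B the blue bars of 7 of the 8 lists pass the dotted line at 19.3%, and no red bar passes that at 26.1%.

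Among the maintenance partners, 6 of 13 were called as lower in RA-sufficient PL (46.2%, beside 19.3% of all genes). In RA-deficient PL 4 of 13 were (30.8%, beside 11.8%), and none was called as higher in either. Positive log2 fold changes were found for 3 and 6 of the 13. In RA-deficient PL, Lig1 (0.66, edgeR adjusted p = 0.00202), Hells (0.49, edgeR adjusted p = 0.00873) and Dmap1 (0.57, edgeR adjusted p = 0.046) were higher but short of the fold limit. Cdca7, the activator of the remodeller Hells, went from 219 ± 37.7 CPM in In/B to 30.4 ± 13.1 CPM in RA-sufficient PL (log2 fold change -2.79, SE 0.33, edgeR adjusted p = 1.37e-04) and 53.9 ± 2.75 CPM in RA-deficient PL (-1.86, SE 0.16, edgeR adjusted p = 1.53e-04). The deacetylase Hdac2 went from 301 ± 22.2 CPM to 84.7 ± 2.79 and 106 ± 19.2 CPM, called in both. The paralogue Cdca7l went from 96.9 ± 23.4 CPM to 14.2 ± 4.53 in RA-sufficient PL and was 35.9 ± 5.95 CPM in RA-deficient PL, a difference between the PL groups of 1.35 (SE 0.29, edgeR adjusted p = 0.0177) that was lost without RA-sufficient replicate 3 or RA-deficient replicate 1. Pclaf, a factor bound to Pcna, went from 13.6 ± 1.53 CPM in In/B to 5.86 ± 2.13 in RA-sufficient PL and 2.05 ± 1.19 CPM in RA-deficient PL, called in both. Its difference between the PL groups was not called (edgeR adjusted p = 0.127).

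Among the de novo partners and chromatin guides, 5 of 10 fell in RA-sufficient PL (50%, beside 19.3% of all genes) and 1 of 10 in RA-deficient PL (10%, beside 11.8%). Morc1, which is needed for transposon methylation in male germ cells, was at 52.2 ± 12.58 CPM in In/B, 16.0 ± 4.43 in RA-sufficient PL and 41.1 ± 5.22 in RA-deficient PL, and the difference between the PL groups was 1.36 (SE 0.25, edgeR adjusted p = 0.0104), lost without RA-sufficient replicate 3 (highest adjusted p = 0.0509). The H3K9 methyltransferase Ehmt1 fell from 234.5 ± 17.9 to 88.2 ± 4.51 CPM with RA. Ctcfl, the germline paralogue of Ctcf, was at 72.4 ± 37.1, 19.1 ± 14.1 and 106 ± 66.5 CPM, its groups overlapped, and its call between the PL groups was kept in 2 of 6 fits. The imprint guardian Zfp57 was called in RA-deficient PL (8.28 ± 1.77 to 1.82 ± 1.195 CPM) but in 2 of 6 fits with a library left out.

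Of the 7 readers of methylated DNA, Zbtb33 (Kaiso) fell in RA-sufficient PL from 70.9 ± 14.2 to 24.7 ± 2.40 CPM and Zbtb4 rose from 27.6 ± 5.41 to 72.6 ± 24.05 CPM. Each was 14.3% of the list, beside 19.3% of all genes called as lower and 26.1% as higher. None of the readers was called in RA-deficient PL against In/B, beside 23.2% of all genes. Between the PL groups Zbtb4 and Zbtb38 were called as lower in RA-deficient PL, but the calls were kept in 2 and 0 of 6 fits with a library left out. Of the 9 TET partners and cofactors, 2 were called as higher and 3 as lower in RA-sufficient PL (22.2% and 33.3%, beside 26.1% and 19.3% of all genes). Idh1, whose product 2-oxoglutarate is the TET cosubstrate, was at 33.0 ± 6.32 CPM in In/B, 72.0 ± 2.01 in RA-sufficient PL and 30.9 ± 2.59 in RA-deficient PL. It was lower in RA-deficient than in RA-sufficient PL by a log2 difference of -1.23 (SE 0.16, edgeR adjusted p = 0.00297), called whichever library was left out, and like Tet1 it was highest where the Sertoli markers were highest, whose part was not tested. Gadd45a fell in RA-sufficient PL from 18.1 ± 4.50 to 6.00 ± 2.55 CPM, and Cxxc5, a CXXC protein linked to Tet2, from 20.6 ± 6.73 to 7.16 ± 1.43 CPM. Calls of Gadd45g as higher in RA-deficient PL than in In/B and of Cxxc5 as higher in RA-deficient than in RA-sufficient PL were kept in 2 and 0 of 6 fits with a library left out.

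Of the 13 base excision repair genes tested, 5 fell in RA-sufficient PL (38.5%, beside 19.3% of all genes). In RA-deficient PL, 3 were called as lower (23.1%, beside 11.8%) and 1 as higher (7.69%, beside 11.4%). None was called between the PL groups, beside 15.5% of all genes. The glycosylase Neil3 went from 24.8 ± 10.5 CPM in In/B to 6.40 ± 1.93 CPM in RA-sufficient PL and 3.71 ± 1.06 CPM in RA-deficient PL, called in both. The endonuclease Apex1 fell in RA-sufficient PL from 121 ± 11.3 to 40.9 ± 1.64 CPM, Smug1 fell in RA-deficient PL from 14.5 ± 1.03 to 4.56 ± 0.484 CPM, and the gap-filling polymerase Polb rose in RA-deficient PL from 54.5 ± 5.68 to 108 ± 1.68 CPM.

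Of the genes that supply the methyl donor S-adenosylmethionine, 4 of 10 tested were called as lower in RA-sufficient PL (40%, beside 19.3% of all genes). In RA-deficient PL 5 of 10 were (50%, beside 11.8%), and none was called as higher in either. Positive log2 fold changes were found for 4 and 3 of the 10. Mat2a was higher in both but short of the fold limit. It was at 383 ± 50.6 CPM in In/B, 691 ± 73.6 in RA-sufficient PL (log2 0.91, edgeR adjusted p = 4.08e-04) and 561 ± 72.4 in RA-deficient PL (0.72, edgeR adjusted p = 0.00492). Shmt1, the cytosolic serine hydroxymethyltransferase, went from 208 ± 29.2 CPM in In/B to 36.6 ± 3.80 and 37.3 ± 8.14 CPM, called in both. Its mitochondrial counterpart Shmt2 went from 140 ± 36.1 CPM in In/B to 26.9 ± 8.25 and 53.1 ± 16.4 CPM, also called in both. Ahcy, which clears the product of methyl transfer, was called against In/B in both PL groups (20.4 ± 4.61 CPM in In/B, 7.56 ± 5.24 and 7.20 ± 2.98), but in 3 and 2 of 6 fits with a library left out.

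The genes most like each enzyme across the 9 libraries, by Pearson r of log2(CPM + 1) among 11146 genes at 5 CPM or more on average, were listed as a description. The points share 3 groups and their somatic and spermatogonial RNA, so high values were common. Dnmt1 was nearest to Mcmbp, a binding partner of the Mcm helicase (r = 0.998), Plekhg2 (r = 0.998) and Arhgef26 (r = 0.995). Uhrf1 was nearest to Cebpz (r = 0.992), Hmgxb4 (r = 0.987) and Rpl37a (r = 0.985), and not to the same genes as Dnmt1, and the r between Uhrf1 and Dnmt1 themselves was 0.736. Dnmt3a was nearest to Anp32b (r = 0.998), Dnmt3b to Mvd (r = 0.995), Tet3 to Tmem184b (r = 0.995) and Tet2 to Atg9a (r = 0.976). Within the family, Dnmt1 and Dnmt3a had an r of 0.985, Dnmt1 and Tet3 of 0.940, Uhrf1 and Dnmt3b of 0.952, and Dnmt3b and Tet2 of -0.948.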

How the data were processed

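The authors trimmed single-end 75-base stranded mRNA reads with cutadapt 1.9, aligned them to mm9 with STAR 2.5.2b and used featureCounts for gene counts. The deposited table holds raw counts of 24505 genes in 9 libraries. The annotation, the strand setting and the treatment of multi-mapped reads are not given in the sources used here. No gene length or depth correction had been applied. Counts were tested with edgeR 4.0.16 in R 4.3.3 (TMM, filterByExpr, quasi-likelihood F test, Benjamini-Hochberg over all genes tested), separately for each pair of groups, as the study's pairwise design does. DESeq2 1.42.0, other scalings, filters and call rules, a replicate block and leaving out each library were alternatives. The 9 genes and the gene lists were chosen with earlier results of these data known. All 9 genes are named. Companions are named by the largest fold change among those called with at least 5 CPM on average, up to 3 per list and direction, except that some genes the rule would name are not reported here. Gene positions and transcript lengths came from GENCODE M1 (mm9), and exact copies of 75-base windows were searched on both strands of mm9. The script was tested on simulated counts. Samples of the same number did not deviate together (correlations from -0.286 to 0.188 over the pairs), so replicate numbers were not treated as pairs. No 2 libraries of the same group agreed within sampling noise (chi-square per degree of freedom at least 6.15). Each group had a closer pair. These were replicates 2 and 3 in In/B (6.15, other pairs 35.8 and 40.3) and in RA-sufficient PL (10.75, others 42.6 and 59.4). In RA-deficient PL they were replicates 1 and 2 (19.8, others 107.1 and 107.7). The study's methods give 2 or 3 independent cell preparations, and whether a closer pair shared one is not stated. Counting error is not replicate error, and limits from 0 counts cover the former only.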

Additional observations from a re-analysis of the deposited data

Results flagged for a closer look

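The 2 enzyme genes called between the PL groups were singled out because their levels differed between these groups by a test of the difference itself. Both calls were lost when any library other than RA-deficient replicate 3 was left out, and with library size only. Dnmt1 was higher in RA-deficient than in RA-sufficient PL by 1.10 on the log2 scale (edgeR adjusted p = 0.0353, higher in 3 of 3 libraries). Tet3 was higher by 1.51 (edgeR adjusted p = 0.0491), with RA-deficient replicate 3 inside the RA-sufficient range. Kit, Sohlh1 and Dmrt1, of the 6 differentiating spermatogonia markers, were high in RA-deficient replicates 1 and 2 as both genes were, while the undifferentiated list (256.3, 203 and 323 CPM) was highest in replicate 3, and their part was not tested.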

How the results depend on the processing

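The 7 calls of RA-sufficient PL against In/B were kept under every scaling, filter and tool tried, and 6 (without Uhrf1) passed a test against a fold change of 2. In RA-deficient PL against In/B, the 3 calls became 5 with library size only, with all 9 libraries in 1 fit or with adjusted p alone, 1 with the test against a fold change of 2, and 2 to 5 with a library left out. In RA-deficient against RA-sufficient PL, the 2 calls became 0 with library size only and with the test against a fold change of 2, and 0 to 2 with a library left out. The cause was not tested. Library size alone shifted the median of all genes to -0.31 and -0.27 in these comparisons and the share of calls that were higher from 49.1% to 28.9% and from 28.8% to 17.5%. By adjusted p alone, companions called were 44, 30 and 18, replication genes 29, 23 and 13, and all genes 5459 and 3629 in the RA-deficient comparisons. Against a fold change of 2, companions were 14, 5 and 1, replication genes 11, 2 and 1, and all genes 1207 and 741. Replication genes between the PL groups were 6 with all 9 libraries in 1 fit and 5 with DESeq2. With a library left out, that comparison gave 3 to 12 companions, 2 to 8 replication genes and 1190 to 4484 genes, the last without RA-deficient replicate 3. The sign turned, without a call, for Dnmt3l between RA-sufficient PL and In/B (0.35 and 0.11 without In/B or RA-sufficient replicate 1, lowest -0.93), for Tet1 between RA-deficient PL and In/B (-0.091 with library size only, -0.16 with the replicate block, -0.46 without RA-deficient replicate 1, highest 0.70), for Tet3 there (0.19 without RA-deficient replicate 3, -0.49 without replicate 1 and -0.52 with library size only), for Uhrf1 between the PL groups (0.014 without RA-sufficient replicate 3, -0.26 without RA-sufficient replicate 1 and -0.28 with library size only) and for Tet2 there (0.012, 0.077 and 0.15 without RA-sufficient replicate 1, RA-deficient replicate 1 or RA-deficient replicate 2, lowest -0.74). Between RA-deficient PL and In/B, the log2 ratio difference with a library left out ran from -0.57 to 0.060 for Uhrf1 to Dnmt1 and from -1.42 to 0.74 for Tet3 to Tet1 (0.14 without RA-deficient replicate 1). The replicate block, whose numbers did not pair the samples, gave 7, 4 and 2 called enzymes. Low counts limit Dnmt3l and Tet1, which had as few as 3 and 6 reads in a library. The 6 reads of Tet1 were in RA-deficient replicate 2, the library with the highest total count.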
